A study of Rattus norvegicus with 26 samples.

Results

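Transcripts of the circadian clock were measured in the soleus, a calf muscle made mostly of slow fibres, of 26 rats. The clock genes described here are Clock, Per1, Per2, Per3, Cry1, Cry2, Nr1d1, Nr1d2 and Dbp, which are 9 of the 34034 genes in the deposited count table and were taken as the rows with these symbols. Bmal1, also written Arntl, was read as context because its protein is the partner of CLOCK. All 9 genes and Bmal1 had a row, and 8 of the 9, with Bmal1, passed the filter on low counts that left 10064 genes for testing. Nr1d1 did not pass, and was tested only in a fit without that filter.

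All rats were aged females of generation 44 of lines bred for high running capacity (HCR) or low running capacity (LCR). The 4 groups were HCR rats with a running wheel (n = 5), LCR rats with a wheel (n = 5), sedentary HCR rats without a wheel (n = 8) and sedentary LCR rats without a wheel (n = 8). Runners lived in pairs for over 5 months, and cage mates entered as separate animals because the labels do not say who shared a cage. Runners were a cohort of their own, and running and cohort cannot be told apart. All groups lived on a light-dark cycle with free access to food. The labels do not give the clock time at which each muscle was taken, so no level below can be placed on the daily cycle.

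Libraries held between 1.10 and 2.52 megacounts (M), and no pair of libraries of a group agreed within sampling noise. In CPM, the counts scaled by library size and TMM factors, slow-fibre markers summed to between 20390 and 39140 over the 26 libraries, above the highest fast-fibre sum of 11310 CPM, as in a slow muscle. The titles of HCR running 5 and LCR running 5 name the other line, and both were kept under the genotype and description in their labels. Reads lie near the 3' end of each transcript, so a level in CPM needs no correction for transcript length.

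In mammals the clock is a loop of transcription and repression that runs in nearly every tissue, skeletal muscle included. BMAL1 and CLOCK form a dimer that binds E-box elements and turns on the Per, Cry, Nr1d and Dbp genes. PER and CRY proteins return to block this dimer, and the nuclear receptors encoded by Nr1d1 and Nr1d2 (REV-ERB alpha and beta) repress Bmal1 through ROR elements, which ROR receptors activate. DBP is an output factor that binds D-box elements. In rodent peripheral tissues, Bmal1 transcripts are known to peak at nearly the opposite time of day from those of Nr1d1, Nr1d2 and Dbp.

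The promoters of Bmal1 and Per2 are printed because they hold the elements by which the members are known to act on each other, and because Bmal1 takes part in the strongest co-variation reported below. Both are RefSeq windows of assembly GRCr8, 250 bases before and 50 bases after the start that the table uses, written 5' to 3' on the gene's strand. Capitals mark a ROR element in Bmal1 (chr1:176766078-176766377, plus strand) and, in order, a D-box and an E'-box in Per2 (chr9:99496944-99497243, minus strand).
Bmal1: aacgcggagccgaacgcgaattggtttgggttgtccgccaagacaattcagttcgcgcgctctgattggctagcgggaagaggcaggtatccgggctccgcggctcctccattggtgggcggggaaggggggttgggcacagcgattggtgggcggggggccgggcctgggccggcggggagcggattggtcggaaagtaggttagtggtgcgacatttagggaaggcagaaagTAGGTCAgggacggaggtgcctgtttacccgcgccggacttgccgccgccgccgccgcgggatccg
Per2: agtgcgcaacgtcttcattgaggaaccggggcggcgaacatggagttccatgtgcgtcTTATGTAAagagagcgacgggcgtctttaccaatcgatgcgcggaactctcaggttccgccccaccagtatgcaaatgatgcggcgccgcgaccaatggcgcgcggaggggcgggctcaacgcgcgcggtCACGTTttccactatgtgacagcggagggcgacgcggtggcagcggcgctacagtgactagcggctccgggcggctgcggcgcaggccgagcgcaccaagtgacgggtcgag
The letters searched, on both strands, were CACGTG for the E-box, CACGTT for the E'-box, TTANGTAA for the D-box, TNGGTCA for the ROR element and TGACGTCA for the cyclic AMP response element. The Bmal1 match TAGGTCA began 16 bases before the start, the Per2 D-box TTATGTAA 192 bases before it and the Per2 CACGTT 62 bases before it. Of 33469 rat windows of the same length, 11.1% held the ROR letters, 2.24% the D-box, 4.83% the E'-box, 6.42% the E-box and 1.83% the cyclic AMP response element. Windows were found for 9 of the 10 genes, 11 windows in all. A second start of Nr1d1 had an E-box 191 bases before it, the first start of Nr1d1 an E'-box 174 bases before it, and Cry2 an E'-box 212 bases before its start. These letters were not in the windows of Dbp, Nr1d2, Per1, Per3 or Clock. A match is a description of the letters and not a measured binding site.

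The activators of the loop were read first. Clock was measured at 38.1 to 63.5 CPM in the 5 HCR runners (median 57.5), 38.0 to 79.4 in the 5 LCR runners (median 52.1), 46.9 to 91.5 in the 8 sedentary HCR rats (median 52.8) and 37.5 to 93.7 in the 8 sedentary LCR rats (median 66.7). The groups overlapped throughout. Bmal1 was at 5.71, 13.6, 9.93, 10.8 and 18.4 CPM in HCR runners 1 to 5 and at 4.88, 1.95, 14.5, 8.21 and 7.92 CPM in LCR runners 1 to 5. Sedentary HCR rats spanned 3.30 to 26.1 CPM of Bmal1 (median 8.50), and sedentary LCR rats 3.23 to 18.1 CPM (median 11.3). Within every group some animals had low and some had high Bmal1, and the whole range was 13.4-fold, from 4 counts in LCR running 2 to 75 counts in HCR sedentary 3.

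The repressors of the dimer varied less than Bmal1. Per1, an immediate target of the dimer that also responds to glucocorticoid, averaged 22.6 ± 2.76 CPM in HCR runners and 19.9 ± 7.02 CPM in LCR runners (SD, n = 5 each), with 22.8 ± 4.46 in sedentary HCR and 19.9 ± 6.53 in sedentary LCR rats (n = 8 each). Per2 averaged 26.9 ± 6.77 CPM in HCR runners and 27.0 ± 3.67 in LCR runners, with 26.4 ± 4.03 in sedentary HCR and 27.6 ± 3.90 in sedentary LCR rats. The 4 means of Per2 lay between 26.4 and 27.6 CPM, closer to each other than the SD of any group. Per3 averaged 15.3 ± 4.20 CPM in HCR runners and 17.6 ± 3.81 in LCR runners, with 18.9 ± 3.45 and 19.0 ± 3.07 in sedentary HCR and sedentary LCR rats. Cry1 ranged from 4.87 to 15.7 CPM over all animals and Cry2 from 26.8 to 44.2 CPM. Cry1 and Cry2 encode the cryptochromes that hold the dimer inactive, and Cry1 rested on 9 to 42 counts per library.

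Of the REV-ERB receptors, Nr1d2 was the higher, at 79.7 to 146 CPM. HCR runners averaged 109.9 ± 21.8 CPM and LCR runners 114.0 ± 19.1 CPM (SD, n = 5 each), and sedentary HCR and LCR rats 119.4 ± 23.9 and 109.8 ± 21.2 CPM (n = 8 each). Nr1d1 had 1 to 12 counts per library and 148 in all, or 0.559 to 7.92 CPM. Tested without the filter, Nr1d1 did not pass in any of the 7 contrasts (edgeR, adjusted p from 0.684 to 1.00), and at this depth a weak correlation of it is uninformative. Per transcript end, Nr1d2 stood highest among the 10 genes by its median over the animals (109 CPM), followed by Clock (58.6 CPM), Dbp (36.9 CPM), Cry2 (34.1 CPM), Per2 (27.3 CPM), Per1 (21.7 CPM), Per3 (18.3 CPM), Cry1 (11.4 CPM), Bmal1 (9.50 CPM) and Nr1d1 (3.21 CPM). The ranges over animals of every gene and its neighbour in that order overlapped.

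Dbp, the output factor, was the most variable of the members that passed the filter. It was at 51.9, 20.6, 43.3, 64.6 and 29.6 CPM in HCR runners 1 to 5 and at 73.8, 61.3, 24.3, 42.3 and 31.7 CPM in LCR runners 1 to 5. Sedentary HCR rats had 18.1 to 69.4 CPM of Dbp (median 41.7), and sedentary LCR rats 16.1 to 62.0 CPM (median 26.2). Each group thus held animals at or below 24.3 CPM and animals at or above 62.0 CPM. The biological coefficient of variation, which is the spread between animals of a group after counting error, was 0.418 for Dbp, where genes of its abundance had a trend of 0.157. It was 0.546 for Bmal1 (trend 0.196) and 0.222 for Clock (trend 0.151), and the ratio to trend of these 3 genes ranked at the 98.3, 98.5 and 92.5 percentile of all genes tested. Per2 (0.127), Per3 (0.136), Cry1 (0.176) and Cry2 (0.108) were below their trends, and Per1 (0.191) and Nr1d2 (0.171) somewhat above.

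**Figure D1:**
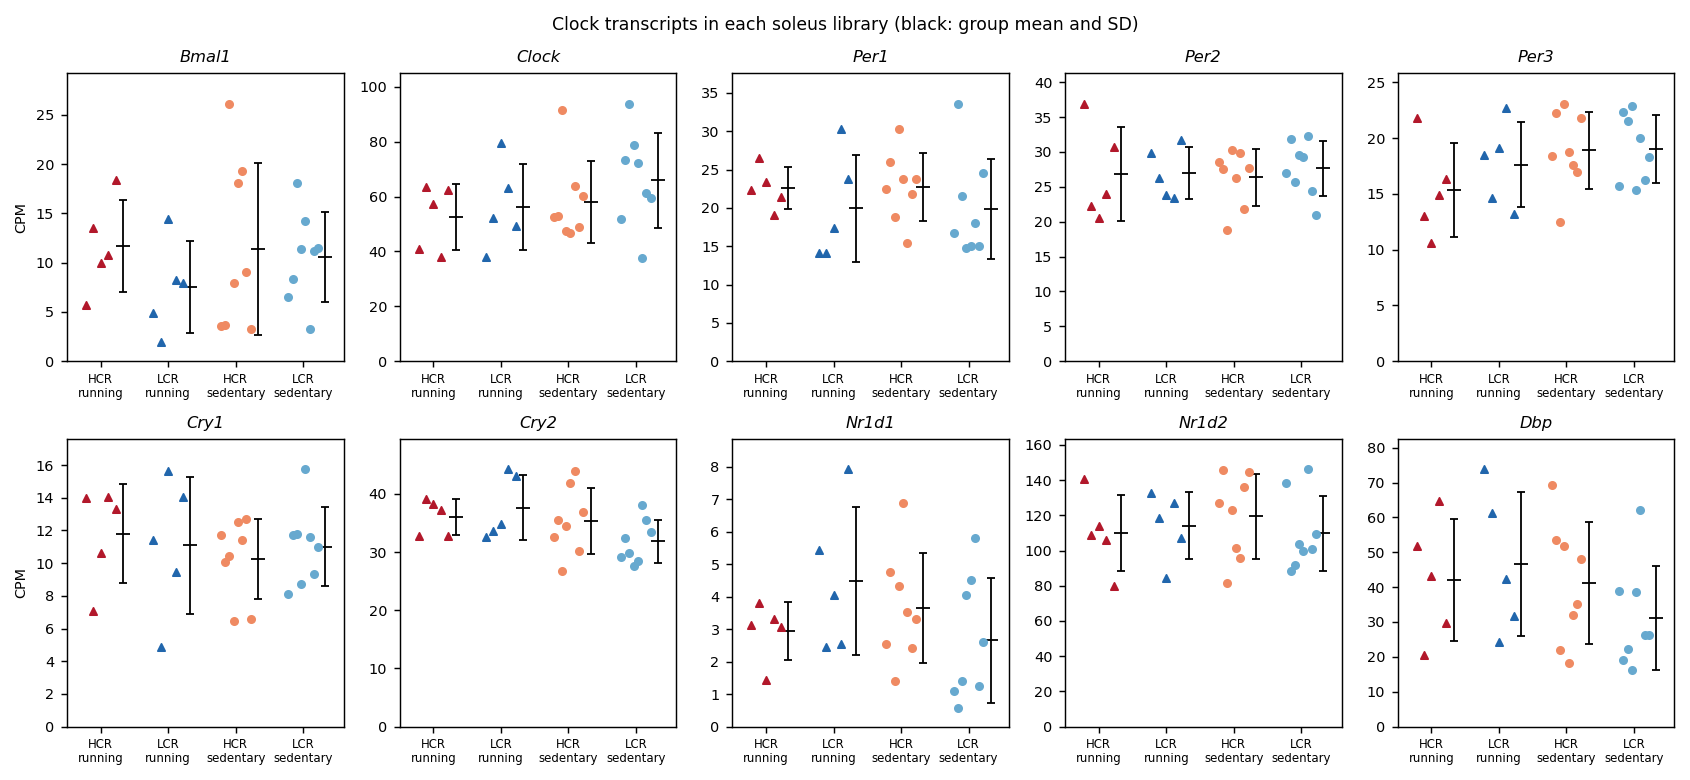
CPM of Bmal1 and the 9 clock genes (y axes, each from 0) in every library of the 4 groups, with black bars for the group mean and SD. Groups overlap in all 10 panels. Over all animals Bmal1 ran from 1.95 to 26.1 CPM and Dbp from 16.1 to 73.8 CPM. Of the genes shown that passed the filter, these 2 had the largest biological coefficients of variation.

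The design asks whether the bred lines differ, with and without a wheel, and whether months of running change soleus transcripts in either line. No clock gene passed in any of the 7 contrasts (edgeR quasi-likelihood test, adjusted over the 10064 genes at 0.05). Between HCR and LCR, 0 of 8 members passed among sedentary rats, where 2.72% of all genes did, and 0 of 8 among runners, where 0.626% did. Averaged over activity, 0 of 8 passed against 3.75% of all genes. Between runners and sedentary rats, 0 of 8 passed in HCR against 0.0994% of all genes, 0 of 8 in LCR against 0% and 0 of 8 averaged over the lines against 0.378%. The difference between the lines' running responses had 0 of 8 members called and 0% of all genes. At an unadjusted p under 0.05, edgeR with no block and DESeq2 had 0 members in each contrast and limma voom with quality weights had 1, for running in LCR. Of all genes, 15.9% had such a p in edgeR between the sedentary lines, 8.58% between the running lines, 15.7% between the lines averaged, 12.5% for running in HCR, 6.08% for running in LCR, 12.7% for running over both lines and 5.88% for the lines' difference in response. Over the 7 contrasts the members' smallest adjusted p ran from 0.545 to 0.917. The members' median log2 fold change was between -0.0548 and 0.0476, beside -0.0040 to 0.0063 for all genes tested. Whole-muscle values cannot tell fewer cells of a type from less RNA per cell.

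The intervals show how large a difference these groups could hide. For Per2, running minus sedentary averaged over the lines was 0.0007 on the log2 scale (95% interval -0.21 to 0.21), and HCR minus LCR averaged over activity was -0.04 (-0.25 to 0.18). For Cry2, running minus sedentary was 0.13 (-0.04 to 0.31) averaged over the lines, 0.04 in HCR (-0.22 to 0.29) and 0.23 in LCR (-0.02 to 0.48), the last with the smallest unadjusted p of any member (0.0687, adjusted 0.829, edgeR). Per1 differed by -0.0029 with running (-0.29 to 0.29), and Nr1d2 by -0.02 (-0.23 to 0.19). For these 4 genes the intervals for running averaged over the lines ended within 0.31 of 0.

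Dbp and Bmal1 allowed much more. In LCR, Dbp was 46.7 ± 20.6 CPM in runners against 31.2 ± 15.0 CPM in sedentary rats, a log2 fold change of 0.60 (-0.14 to 1.33, adjusted p = 0.846, edgeR). In HCR it was 42.0 ± 17.5 CPM in runners and 41.3 ± 17.5 CPM in sedentary rats, a log2 fold change of 0.03 (-0.71 to 0.78). The difference of these responses, HCR minus LCR, was -0.56 (-1.61 to 0.49, adjusted p = 0.917, edgeR), so a larger response in LCR was not shown. Bmal1 was 11.7 ± 4.70 CPM in HCR runners against 7.49 ± 4.67 CPM in LCR runners, a log2 fold change of 0.62 (-0.58 to 1.82, adjusted p = 0.841, edgeR). Among sedentary rats it was 11.4 ± 8.68 CPM in HCR and 10.6 ± 4.58 CPM in LCR (0.18, -0.66 to 1.01). Fold changes over 2 in Dbp or Bmal1 were within several of these intervals and were not detectable with this spread between animals.

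**Figure D2:**
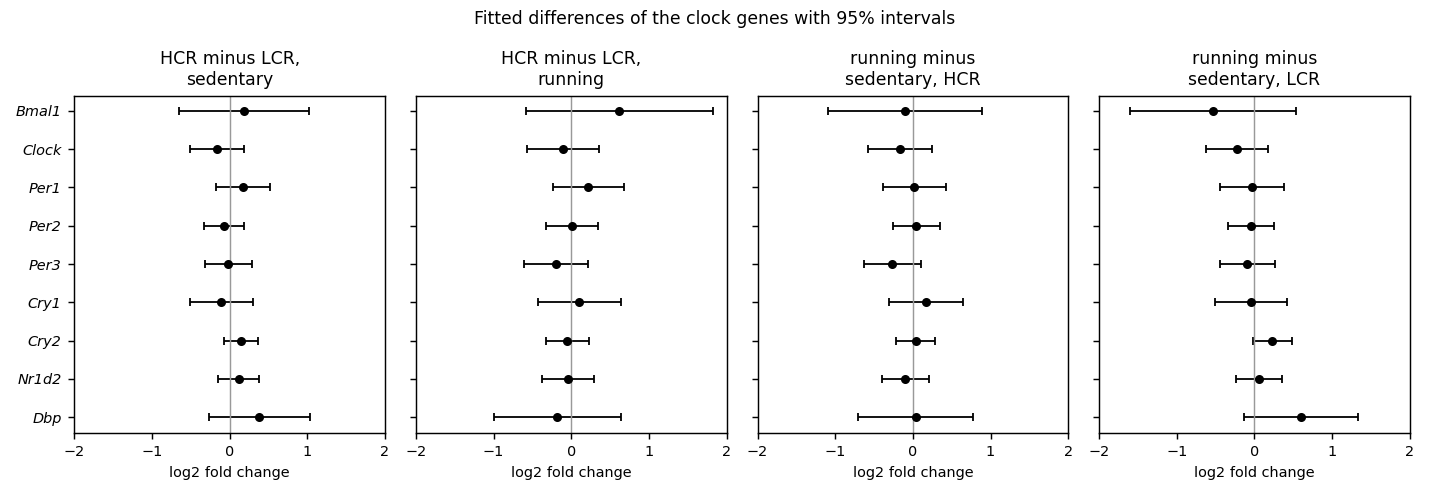
Fitted log2 fold changes (x axes) of Bmal1 and the 8 tested clock genes for 4 contrasts, with bars for the 95% interval. Every interval holds 0, the narrowest in each panel is that of Cry2, and the widest those of Bmal1 and Dbp.

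Although no clock gene passed between groups, Bmal1, Clock, Nr1d2 and Dbp varied together from animal to animal. After each group's mean was subtracted from log2 CPM, 6 of 45 pairs among the 10 genes passed over the 26 animals (2-sided permutation within groups, 100000 resamples, adjusted over the 45 pairs), and the same 6 passed by Spearman's rho. All 6 lay among Bmal1, Clock, Nr1d2 and Dbp, which form no more than 6 pairs. The share of pairs among all genes tested that correlate as strongly was not computed. Bmal1 and Clock were high in the same animals, Nr1d2 and Dbp were high in the others, and the pairs across these sides were negative.

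The clearest pair was Bmal1 and Nr1d2 (r = -0.82, rho = -0.79, permutation p = 1e-05, the smallest these resamples can give, adjusted 0.00045). The pair kept r = -0.79 without the 2 animals farthest from the median of Nr1d2. Within the 8 sedentary HCR rats r was -0.92 (exact permutation p = 0.00226), and within the 8 sedentary LCR rats it was -0.80 (exact permutation p = 0.0176). Bmal1 and Dbp had r = -0.76 (rho = -0.76, adjusted permutation p = 0.00195) and -0.69 without the 2 animals farthest in Dbp. It was -0.88 in sedentary HCR (exact permutation p = 0.0063) and -0.65 in sedentary LCR rats (exact permutation p = 0.0822). Nr1d2 and Dbp were high in the same animals (r = 0.71, rho = 0.70, adjusted permutation p = 0.00259), with 0.75 in sedentary HCR and 0.79 in sedentary LCR rats (exact permutation p = 0.0361 and 0.0224).

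The pairs of Clock rested more on single animals and on scaling. Clock and Bmal1 had r = 0.62 (rho = 0.61, adjusted permutation p = 0.00705), Clock and Nr1d2 -0.71 (rho = -0.66, adjusted permutation p = 0.00195), and Clock and Dbp -0.68 (rho = -0.65, adjusted permutation p = 0.00405). Without LCR sedentary 6 and HCR sedentary 3, the animals farthest in Clock, these were 0.43, -0.56 and -0.55. In sedentary LCR rats they were 0.90, -0.89 and -0.81, and in sedentary HCR rats 0.45, -0.63 and -0.33, with exact permutation p = 0.264, 0.0824 and 0.438 in the HCR rats. The difference between the lines in these r was not tested. Clock and Bmal1 lost its call without LCR sedentary 6 (adjusted permutation p = 0.0641). With library totals in place of TMM factors, Clock and Nr1d2 was -0.49 (adjusted permutation p = 0.105) and Clock and Dbp -0.55 (adjusted permutation p = 0.0615).

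A pair of animals shows the pattern at its extremes. HCR sedentary 3 had 26.1 CPM of Bmal1, 91.5 of Clock, 81.4 of Nr1d2 and 21.9 of Dbp. LCR sedentary 6 had 3.23 CPM of Bmal1, 37.5 of Clock, 146.1 of Nr1d2 and 62.0 of Dbp. Both were sedentary and they differ in line, but low and high animals occurred in all 4 groups. The first principal component of the 10 genes took 36.2% of their group-centred, scaled variance, against 17.6% and 14.7% for the next components. Its loadings were 0.46 for Bmal1 and 0.44 for Clock, against -0.46 for Nr1d2, -0.43 for Dbp and -0.30 for Per2. These 2 animals had the extreme scores, 4.88 and -4.24. HCR sedentary 3 also had the largest library (2.52 M counts), and LCR sedentary 6 had 1.598 M counts.

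**Figure D3:**
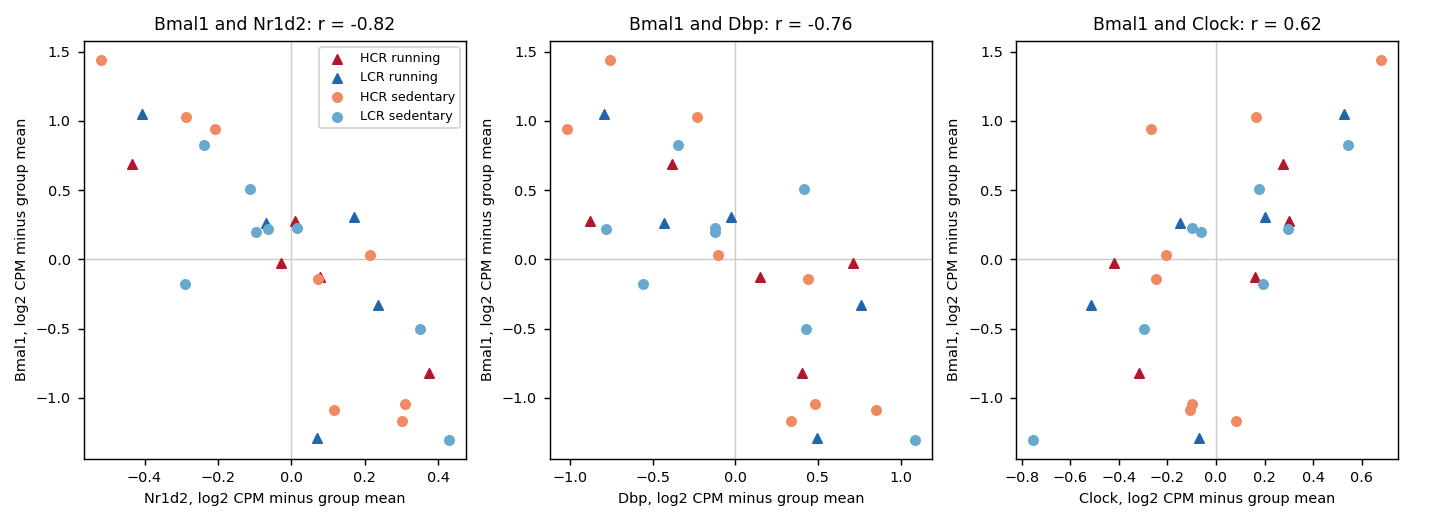
Bmal1 (y axes) against Nr1d2, Dbp and Clock (x axes), each as log2 CPM minus its group mean, with 1 point per animal and the 4 groups by colour and shape. Animals of all 4 groups lie along a falling line with Nr1d2 (r = -0.82) and Dbp (r = -0.76) and a rising one with Clock (r = 0.62).

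Per1, Per2, Per3, Cry1, Cry2 and Nr1d1 took no part in any called pair. The next pair was Per2 and Per3 (r = 0.52, adjusted permutation p = 0.103), which passed without LCR running 4, without LCR running 5, and without both HCR running 5 and LCR running 5 (r = 0.64, adjusted permutation p = 0.0386). Per2 with Bmal1 stood at -0.39 and Per2 with Dbp at 0.32, while Cry1 with Bmal1 stood at 0.40. Of the pairs among Per1, Cry1 and Cry2, none exceeded 0.32. Per2 with Nr1d1 was at 0.42 and passed without LCR sedentary 2.

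**Figure D4:**
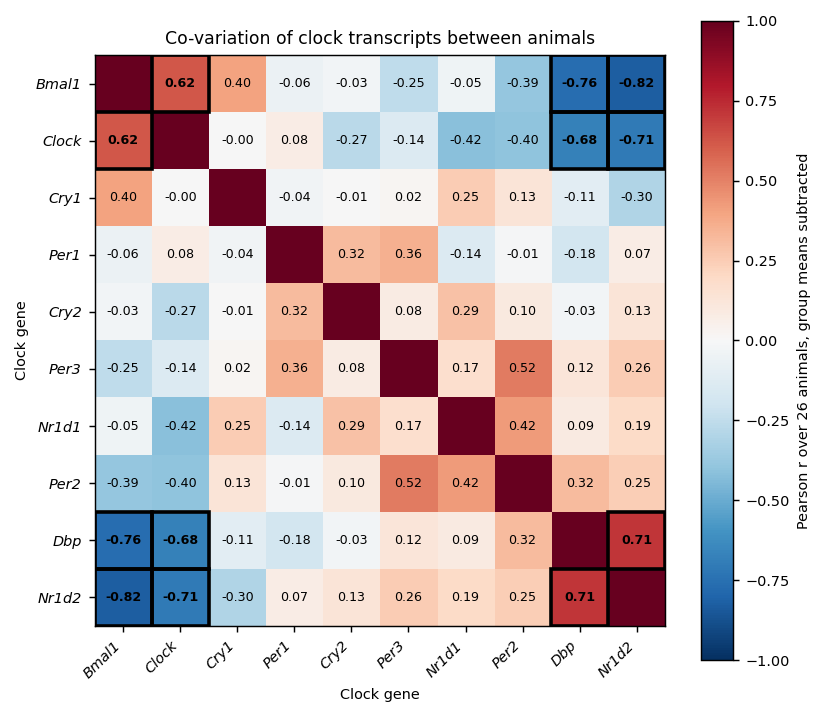
Pearson r over the 26 animals, after subtraction of group means from log2 CPM, for the 45 pairs of the 10 genes (both axes), with colour from -1 to 1. Black frames mark the 6 pairs that passed, with r from -0.82 to 0.71, all among Bmal1, Clock, Dbp and Nr1d2.

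Measures outside the clock were set beside it. The 10 genes were correlated with 5 of them, namely Tsc22d3 and Fkbp5, both targets of the glucocorticoid receptor, the immediate early gene Fos, the fast myosin gene Myh2 and log2 total counts. None of these 50 pairs passed, by Pearson or Spearman, and 2 had an unadjusted permutation p under 0.05. These were Per1 with Tsc22d3 (r = 0.53, permutation p = 0.0108, adjusted 0.541) and Per1 with Fkbp5 (r = 0.50, permutation p = 0.0224, adjusted 0.559). Bmal1 had r = 0.12 with Myh2, 0.17 with Fos, -0.03 with Tsc22d3 and 0.06 with log2 total counts, and Dbp had -0.22, -0.38, -0.01 and 0.05. For Nr1d2 the r with log2 total counts was -0.03 and for Clock 0.18, and -0.08 for Clock without LCR sedentary 6 and HCR sedentary 3. Within the sedentary HCR rats, which include HCR sedentary 3, Clock had r = 0.80 with log2 total counts (rho = 0.55, unadjusted exact permutation p = 0.0182), Nr1d2 -0.75 (rho = -0.60, unadjusted exact permutation p = 0.0326) and Bmal1 0.57 (unadjusted exact permutation p = 0.145). Within the sedentary LCR rats these were -0.09, 0.04 and 0.10. Per3 was negative with log2 total counts in both sedentary groups, at -0.76 in HCR and -0.73 in LCR (unadjusted exact permutation p = 0.0266 and 0.0371). The part of depth in the sedentary HCR values was not tested.

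Listed genes of the wider clock machinery and of clock output were then read against Bmal1 and Dbp. This family of 74 pairs, 37 tested genes of the wider clock and clock output lists with each of the 2 genes, was chosen after the clock pairs had been seen. In it 5 pairs passed (2-sided permutation, adjusted over the 74 pairs). The share of all genes tested that correlate as strongly with Bmal1 or Dbp was not computed, so this count has no background beside it. Outside all clock lists, Lrrc30 reached r = 0.79 with Bmal1 and -0.79 with Dbp, as given below. Wee1, a kinase that holds back entry into mitosis and is a known E-box target in mouse liver, was low where Bmal1 was high (r = -0.73, rho = -0.70, adjusted permutation p = 0.0037), with -0.84 in sedentary HCR and -0.94 in sedentary LCR rats. Wee1 ranged from 30.6 to 72.4 CPM. Tspan4, a tetraspanin gene (r = -0.62, rho = -0.61, adjusted permutation p = 0.0155), and Por, the electron donor of microsomal cytochromes P450 (r = -0.61, rho = -0.58, adjusted permutation p = 0.032), were also low where Bmal1 was high. With Dbp, Tef, which encodes another D-box factor of the same family, was positive (r = 0.62, rho = 0.54, adjusted permutation p = 0.032). Ucp3, a mitochondrial uncoupling protein of skeletal muscle, was negative (r = -0.62, rho = -0.62, adjusted permutation p = 0.032).

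The family's calls depend on single animals more than those among the clock genes. Bmal1 with Wee1 and with Tspan4 passed in all 26 repeats that left out 1 library. Dbp with Tef passed in 22 of them, and failed without LCR sedentary 6, HCR sedentary 3, LCR running 1 or HCR running 2. Dbp with Ucp3 passed in 21, and failed without LCR sedentary 4 or 6 or HCR sedentary 1, 3 or 5 (adjusted permutation p up to 0.113). Bmal1 with Por passed in 19, and failed without LCR sedentary 3 or 6, HCR sedentary 1, 2, 3 or 8, or LCR running 1 (adjusted permutation p up to 0.177). Dbp with Tef did not pass by Spearman's rho (adjusted permutation p = 0.0636). In sedentary rats only, Bmal1 with Tspan4 (adjusted permutation p = 0.105) and Dbp with Tef (adjusted permutation p = 0.0792) did not pass. With the replicate block Bmal1 with Tspan4 fell to r = -0.36 (adjusted permutation p = 0.429). Dbp with Ucp3 did not pass under the line in the 2 conflicting titles (adjusted permutation p = 0.0556), nor Dbp with Tef without these 2 libraries (adjusted permutation p = 0.0527). Without the 2 animals farthest in Bmal1 or Dbp, the 5 pairs had r of -0.69 (Wee1), -0.60 (Tspan4), -0.65 (Por), 0.60 (Tef) and -0.53 (Ucp3). Hlf, the remaining D-box factor of that family, had r = 0.49 with Dbp and -0.55 with Bmal1 (adjusted permutation p = 0.096 and 0.0858).

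Genes outside all clock lists were ranked by their likeness to Dbp and Bmal1, as a description without a test. Among 6390 genes and over the 26 animals, whose values share libraries and scaling, those most like Dbp were Slc12a4 (r = 0.68), a potassium-chloride cotransporter, Tnxa-ps1 (0.68), Timm22 (0.66), of the mitochondrial inner membrane import machinery, Comtd1 (0.64), Gtf3a (0.63) and Nop14 (0.63). Those most opposed to Dbp included Lrrc30 (-0.79), Amotl2 (-0.76), Map3k1 (-0.71), Zdhhc18 (-0.71) and Skic3 (-0.69). The genes most like Bmal1 were Lrrc30 (0.79), Zdhhc18 (0.77), Ark2n (0.76), Sh3bp5 (0.75), Mid1 (0.73) and Tp53inp1 (0.72). Those most opposed were Tnxa-ps1 (-0.73), Slc12a4 (-0.72), Rad50 (-0.72), Mocs2 (-0.72), Synj2 (-0.71) and Actr3b (-0.68). Lrrc30 thus stood at an end of both rankings, with 13.3 to 97.9 CPM across animals, as did Slc12a4, with 74.8 to 147.3 CPM. Tnxa-ps1, with 82.5 to 187.8 CPM, and Zdhhc18, with 16.2 to 32.5 CPM, were also in both. Dbp and Bmal1 are themselves negatively related, so these rankings are not independent.

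The wider clock machinery, 23 genes of auxiliary receptors, kinases, ubiquitin ligases and cofactors, had 17 genes tested. Npas2, Rorb, Ciart, Fbxl21, Timeless and Arntl2 did not pass the filter. Averaged over activity, 0 of the 17 were higher and 1 was lower in HCR than in LCR, where 3.75% of all genes tested passed, so the count is near that of all genes. That gene was Bhlhe40, which encodes DEC1, a repressor that competes with BMAL1 and CLOCK for E-boxes. Bhlhe40 was at 12.46, 10.3, 7.80, 11.6 and 16.4 CPM in HCR runners 1 to 5 and at 29.3, 15.6, 18.0, 25.9 and 15.0 CPM in LCR runners 1 to 5. Sedentary HCR rats had 11.7 to 20.9 CPM, and sedentary LCR rats 17.3 to 27.8 CPM. In both activities most HCR animals lay below all LCR animals, with overlap. The log2 fold change averaged over activity was -0.66 (SE 0.14, adjusted p = 0.00247, edgeR), -0.86 among runners (SE 0.22, adjusted p = 0.0583, edgeR) and -0.45 among sedentary rats (SE 0.16, adjusted p = 0.125, edgeR). The averaged call held in all 34 alternatives, the 26 leave-outs included. The call among runners appeared with DESeq2 (adjusted p = 0.0464), without the filter (adjusted p = 0.0442, edgeR), without LCR running 2 or HCR running 5, and without both libraries of conflicting title (adjusted p = 0.0291, edgeR).

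The summed fast-fibre markers moved with line as Bhlhe40 did. The 6 markers summed to 1738 to 3186 CPM in HCR runners (median 2512) against 4054 to 11090 in LCR runners (median 7180), and to 1388 to 7531 in sedentary HCR (median 4838) against 5096 to 11310 in sedentary LCR rats (median 7991). The part of fibre type in the Bhlhe40 difference was not tested. Other genes of small p for line in the wider list did not pass. They included Prkaa2, a catalytic subunit of AMP-activated kinase (log2 fold change -0.17, SE 0.06, adjusted p = 0.109, edgeR), and the casein kinase gene Csnk1a1 (-0.10, adjusted p = 0.403). In the other 5 contrasts besides the averaged ones for line and running, edgeR called 0 of the 17, with 1 to 4 at an unadjusted p under 0.05, where 5.88% to 15.9% of all genes had one, while DESeq2 called Bhlhe40 between the running lines and Btrc for running in HCR.

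With running, averaged over the lines, 0 of the 17 were higher and 1 was lower, where 0.378% of all genes tested passed. Btrc encodes an F-box protein that marks phosphorylated PER for degradation, among many other substrates. It was at 22.3, 20.6, 14.9, 18.2 and 17.4 CPM in HCR runners 1 to 5 and at 23.9, 14.1, 27.8, 25.3 and 22.9 CPM in LCR runners, against 23.3 to 38.7 CPM in sedentary HCR and 21.2 to 36.3 CPM in sedentary LCR rats. All HCR runners lay below all sedentary HCR rats, while the LCR groups overlapped. The 4 endothelial markers had lower medians in runners as well, with sums of 99.1 to 131 CPM in HCR runners (median 113.5) against 117 to 175 in sedentary HCR rats (median 136.1), and of 101 to 140 in LCR runners (median 122.6) against 120 to 179.8 in sedentary LCR rats (median 149.5). In HCR the fast-fibre sums given above also had a lower median in runners than in sedentary rats, with overlap. The part of these cell types in the Btrc value, and in that of Klf9 below, was not tested. The averaged log2 fold change was -0.51 (SE 0.12, adjusted p = 0.0425, edgeR), and it passed in 7 of the 26 repeats without 1 library (adjusted p from 0.0338 to 0.119, edgeR). These 7 left out LCR sedentary 7, HCR sedentary 4, 6 or 8, LCR running 3 or 5, or HCR running 2. Without HCR running 5 and LCR running 5 the adjusted p was 0.0726. Rora, an activator at ROR elements, was at 0.19 (SE 0.06, adjusted p = 0.178, edgeR), Csnk1a1 at 0.13 (adjusted p = 0.292, edgeR) and Gsk3b, a kinase that acts on several clock proteins, had an adjusted p of 0.375.

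Of 20 clock output genes, all tested, 1 was higher and 0 were lower in runners averaged over the lines, where 0.378% of all genes tested passed. Klf9, a zinc-finger factor driven by glucocorticoid and by the clock in other tissues, was at 676 to 831 CPM in HCR runners and 661 to 833 CPM in LCR runners, against 459 to 753 CPM in sedentary HCR and 431 to 699 CPM in sedentary LCR rats. All 10 runners lay above the mean of the sedentary rats of their line, and the groups overlapped. The log2 fold change was 0.34 (SE 0.08, adjusted p = 0.0425, edgeR), and it passed in 6 of the 26 repeats without 1 library (adjusted p from 0.0129 to 0.119, edgeR). These 6 left out LCR sedentary 8, HCR sedentary 4 or 8, LCR running 3 or 5, or HCR running 2. Without HCR running 5 and LCR running 5 it was 0.0632, and with upper-quartile factors 0.052. The glucocorticoid target Tsc22d3 was also higher in runners (0.45, SE 0.08, adjusted p = 0.00551, edgeR). It was the only gene that edgeR called of 14 tested in a list of glucocorticoid and immediate early genes. Of these 14, 6 were above 0 and 8 below 0. By mean CPM, Fkbp5, Zbtb16 and Ddit4 were also higher in runners of both lines. Sgk1, Nr3c1, Fos, Jun, Junb, Egr1 and Ier2 were lower in both, and Atf3, Nr4a1 and Crem differed in direction between the lines. Fos averaged 92.6 CPM in HCR runners against 239 in sedentary HCR rats, and 113 against 235 CPM in LCR. DESeq2 called Fos for running averaged over the lines. In edgeR, Klf15 (0.43, adjusted p = 0.153), Hlf (0.37, adjusted p = 0.185) and the transferrin receptor gene Tfrc (0.27, adjusted p = 0.313) had values above 0 without passing.

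Between the lines, averaged over activity, 0 of the 20 output genes passed in either direction, in edgeR or DESeq2, and the same held in the other 5 contrasts. Ucp3 had the smallest p (log2 fold change 1.39, SE 0.48, adjusted p = 0.12, edgeR), with 43.5 ± 17.0 CPM in HCR runners and 10.1 ± 10.9 CPM in LCR runners, and 34.3 ± 31.6 CPM in sedentary HCR and 22.6 ± 17.0 CPM in sedentary LCR rats. In edgeR it was followed by the heat-shock gene Hspa1b (-0.41, adjusted p = 0.294), by Pdk4, which restrains glucose oxidation (0.57, adjusted p = 0.453), and by Coq10b (0.39, adjusted p = 0.506). At an unadjusted p under 0.05, 2 output genes differed between the lines and 8 between runners and sedentary rats, where 15.7% and 12.7% of all genes did. The output list's median log2 fold change with running was 0.10, beside -0.0040 for all genes tested.

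**Figure D5:**
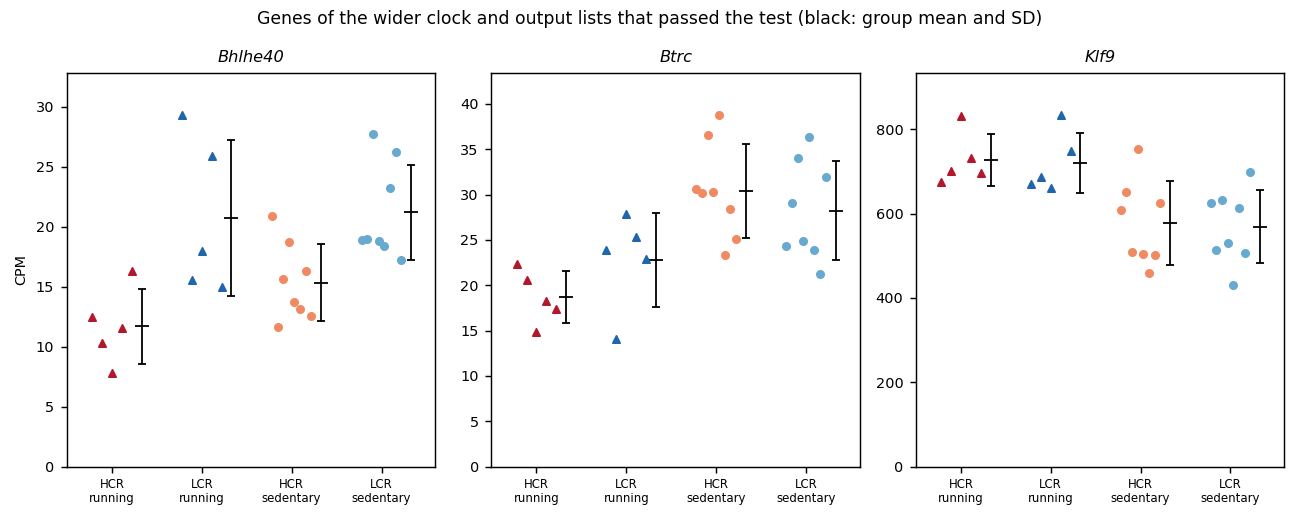
CPM of Bhlhe40, Btrc and Klf9 (y axes, each from 0) in every library of the 4 groups, with black bars for the group mean and SD. The Bhlhe40 mean is lower in HCR than in LCR within both activities, the Btrc mean is lower and the Klf9 mean higher in runners within both lines, and HCR runners and sedentary HCR rats do not overlap for Btrc.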

How the data were processed

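Polyadenylated RNA of soleus from 26 rats was read from 1 end after priming from the poly(A) tail (QuantSeq), per the labels' protocols. Gene counts were used as deposited: they are whole numbers with unequal library totals, and no normalisation by the authors is seen in them. Alignment and counting tools in the submitters' processing notes are STAR and featureCounts, beside cutadapt, UMI-tools, MultiQC and FastQC, with the assembly mRatBN7.2 and no settings. Merging of reads by molecular identifier and the use of strand are not described in the labels, so counting precision may be lower than the totals imply. Columns that belong to no sample number 0.

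Groups came from genotype and treatment. The gene test was that of edgeR 4.0.16 under R 4.3.3 (robust quasi-likelihood F test, TMM, filterByExpr by group with a minimum count of 10), with all 26 libraries in 1 fit over 10064 genes, no covariate, and Benjamini-Hochberg adjustment at 0.05. DESeq2 1.42.0 and limma 3.58.1 were alternatives. Intervals are 95%. Nothing in the labels gives separate litters, so p-values measure the spread between these animals. Correlations used log2 CPM with a prior count of 2, group means subtracted, and were tested by permutation within groups (100000 resamples) in Python 3.11.15 with NumPy 2.4.6, with 40320 orders within each group of 8. The tests were tried on simulated data first.

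The members and gene lists were chosen with earlier results of these data known. Genes named beyond the members are those of the lists that passed in any contrast, the 4 of smallest p in each averaged contrast, and the 6 of highest and lowest r with Dbp and Bmal1 at an average log2 CPM of at least 4; 2 of these are not reported here. Promoters are RefSeq windows of GRCr8, and no coordinate was carried between assemblies. Alternatives were other scaling, filters and tests, the replicate block, the conflicting titles and each library left out.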

Additional observations from a re-analysis of the deposited data

Results flagged for a closer look

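Clock in HCR sedentary 3, at 91.5 CPM, stood apart from the other 7 sedentary HCR rats, which had 46.9 to 63.7 CPM, by 0.623 of the group's range (n = 8). It was the only such value among 40 tests, 10 genes in 4 groups, where chance flags about 1 group in 20. The same animal had the highest Bmal1 and the lowest Nr1d2 of its group. Without it and LCR sedentary 6, the r of Clock was 0.43 with Bmal1, -0.56 with Nr1d2 and -0.55 with Dbp.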

How the results depend on the processing

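The count of clock genes called was 0 in each of the 7 contrasts under every alternative run (0 to 0 without 1 library), and no called value changed sign. Of 2904 recomputed values for single genes, 168 changed sign, none of them called. The count of called clock pairs, 6, was 4 with library totals, 4 in sedentary rats only and 5 to 7 without 1 library. Sedentary rats alone lost Clock and Dbp (adjusted permutation p = 0.134) and Clock and Bmal1 (adjusted permutation p = 0.067). Same-numbered animals mostly deviated together little (correlations from -0.221 to 0.257, over 0.1 in 2 of 23). The LCR animal closest to an HCR animal had the same number for sedentary 5 and for runners 1 and 5. Whether the numbers carry a shared cage, day or order of collection was not tested. With the replicate block the clock pairs called were 2, Bmal1 with Nr1d2 and with Dbp, and the other 4 had an adjusted permutation p of 0.181. In the gene tests the block left 0 members called, with 1 at an unadjusted p under 0.05 for running in LCR and 2 for running averaged. The block took Klf9 for running averaged to an adjusted p of 0.1001 (edgeR) and changed no other call of a gene named here. The 50 context pairs kept a count of 0 (0 to 0 without 1 library). The 5 called pairs of listed genes, a family added after seeing the data, were 9 by Spearman, 8 with library totals, 10 with no group mean subtracted, 0 with the replicate block, and 2 to 8 without 1 library (2 without LCR sedentary 6 or HCR sedentary 3, 3 without HCR sedentary 1 or LCR running 1, 8 without HCR running 4). The cause was not tested for these changes. Depth limits Nr1d1, Cry1 and Bmal1 most, and sampling time could enter no fit.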
